A study of Homo sapiens with 24 samples.

Results

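GLIPR1 and its closest relatives, GLIPR2, GLIPR1L1 and GLIPR1L2, were examined in T-47D cells stimulated with heregulin (HRG). The 4 genes were chosen by name around GLIPR1, which had been picked because it showed the largest HRG rise, so its HRG response is given as a description with no test in any cell group. The choice names no arrays, and the comparisons of silenced with NTC cells may use arrays that entered it. The platform annotation pairs 1 probe set with GLIPR1 alone, 1 with GLIPR1L1 alone and 1 with GLIPR1L2 alone, which gives 3 measured genes of 4, among 18374 genes in all with a probe set of their own. No probe set is paired with GLIPR2 in the annotation used here, so GLIPR2 has no values.

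T-47D is an established breast cancer line of the luminal type that carries the estrogen receptor, and HRG is a growth factor that binds ErbB3 and ErbB4. Serum-starved cells received HRG at 20 ng/ml or its vehicle, PBS, for 6 h, and total RNA was hybridized to Affymetrix Human Gene 1.0 ST arrays, with 3 biological replicates in each of 8 groups (24 arrays). The groups were cells transfected with P-Rex1 RNAi duplex #1, cells transfected with P-Rex1 RNAi duplex #2, cells transfected with a non-target control duplex (NTC) and untransfected parental cells, each with HRG and with vehicle. P-Rex1, encoded by PREX1, is a guanine nucleotide exchange factor that activates the small GTPase Rac. The silencing was transient and partial, each duplex is 1 sequence, and all arrays come from 1 cell line, so the groups model a lowered P-Rex1 level and not its absence.

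GLIPR1 (GLI pathogenesis-related 1, also known as RTVP-1) was found in glioma and belongs to the CAP superfamily, which is named after cysteine-rich secretory proteins, antigen 5 and plant pathogenesis-related proteins. Its protein carries a signal peptide, the CAP domain and a membrane-spanning stretch. GLIPR1 is known as a p53 target with a growth-suppressing role in prostate cells and as a target of serum response factor (SRF) in glioma cells, where it has been tied to migration. GLIPR1L1 and GLIPR1L2 lie next to GLIPR1 in the genome and are known mainly from testis. GLIPR2, also called GAPR-1, is a myristoylated protein on the Golgi membrane that binds Beclin 1, a core protein of autophagy.

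Values are log2 expression values normalized by Robust Multichip Average (RMA), so a difference of 1 is a doubling. The median of an array lay between 6.04 and 6.18 and its highest probe set between 13.3 and 13.8. All 11 luminal epithelial markers on the list, ESR1, FOXA1 and KRT8 among them, lay above the array median on every array. Of the markers of other cells, 1 of 9 measured leukocyte genes (TYROBP), 1 of 8 fibroblast genes (COL1A1) and 0 of 5 endothelial genes did so, while PTPRC, LYZ and FCER1G, DCN and FAP, and PECAM1 lay in the lowest 25% of probe sets on every array. Averaged over a list, the group means ranged from 4.90 to 5.02 for leukocyte genes, 5.21 to 5.53 for fibroblast genes and 4.36 to 4.48 for endothelial genes. Some markers differed with HRG: CD68, a lysosomal protein best known from macrophages, averaged 7.08 with HRG and 6.15 with vehicle in NTC cells, and ESR1, the estrogen receptor, 8.43 with HRG and 9.52 with vehicle. LUM, a proteoglycan of the fibroblast matrix, had higher means with HRG in all 4 cell groups and lower ones under #2: with HRG it averaged 7.60 under #1, 6.15 under #2, 6.98 in NTC cells and 7.34 in parental cells, against 6.40, 5.16, 6.40 and 6.49 with vehicle. The part of these markers in the results below was not tested. PREX1 itself read 9.09, 8.91 and 8.98 with vehicle under P-Rex1 RNAi #1 and between 8.97 and 9.03 under #2, against 10.52, 10.36 and 10.38 in NTC cells. With HRG it read 8.60, 8.45 and 8.55 under #1 and 8.83, 8.57 and 8.80 under #2, against 9.53, 9.52 and 9.30 in NTC cells. PREX1 was thus lower in every silenced array than in every NTC array of the same treatment, and also lower with HRG than with vehicle.

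GLIPR1 was the gene that responded most to HRG. In parental cells its log2 values were 11.85, 11.80 and 11.95 with HRG, against 6.94, 7.01 and 6.82 with vehicle. The difference of 4.95 corresponds to 30.8-fold, and the next largest rise, that of SYTL2, was 12.6-fold. SYTL2 encodes a synaptotagmin-like protein that links vesicles to Rab27.

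In NTC cells GLIPR1 read 11.90, 11.82 and 12.02 with HRG, against 6.81, 6.91 and 7.05 with vehicle. The groups lay far apart, and the difference of 4.99 (SE 0.20) was 31.7-fold, the largest rise of the 21042 probe sets tested. As GLIPR1 was picked for its HRG rise, its first rank, here and under the duplexes, may follow from that choice. Tests were made in limma with Benjamini-Hochberg adjustment over all 21042. A probe set was called throughout when its fold change exceeded 1.5 and its adjusted p was below 0.05, and by this rule HRG raised 2.64% of probe sets in NTC cells and 2.86% in parental cells. The NTC mean minus the parental mean was 0.04 with HRG and 0.00106 with vehicle, given with no test. As arrays of whole cultures were measured, a change in the RNA of each cell and a change in the number of cells that carry it cannot be told apart.

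GLIPR1 was also higher with HRG when P-Rex1 was silenced. Under duplex #1 its values were 10.87, 10.90 and 11.16 with HRG, against 6.79, 6.39 and 6.48 with vehicle. This was a rise of 21.5-fold (log2 difference 4.43, SE 0.20), the largest of the 21042, where 2.52% of probe sets were called higher. Under duplex #2 the values were 9.92, 9.96 and 10.18 with HRG, against 6.75, 6.45 and 7.78 with vehicle. The rise was 8.15-fold (log2 difference 3.03, SE 0.20), the largest also in this group, where 1.07% of probe sets were called higher. The 3 arrays with HRG agreed closely under #2, whereas the vehicle array of replicate 3 stood 1.18 above the mean of the other 2. Among the 19292 probe sets with 1 symbol, only NRN1, a neuronal surface protein, deviated more upward on that array. DUSP6, a phosphatase of ERK, was next at 0.98. NRN1 also led the upward deviations on the replicate 3 arrays of the other groups except #2 with HRG, and on some replicate 2 arrays. Over the probe sets that HRG raised in parental cells the median deviation of #2 vehicle replicate 3 was 0.0057, and its PREX1 value deviated by 0.05. Without this array the HRG rise of GLIPR1 under #2 was 10.7-fold.

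**Figure D1:**
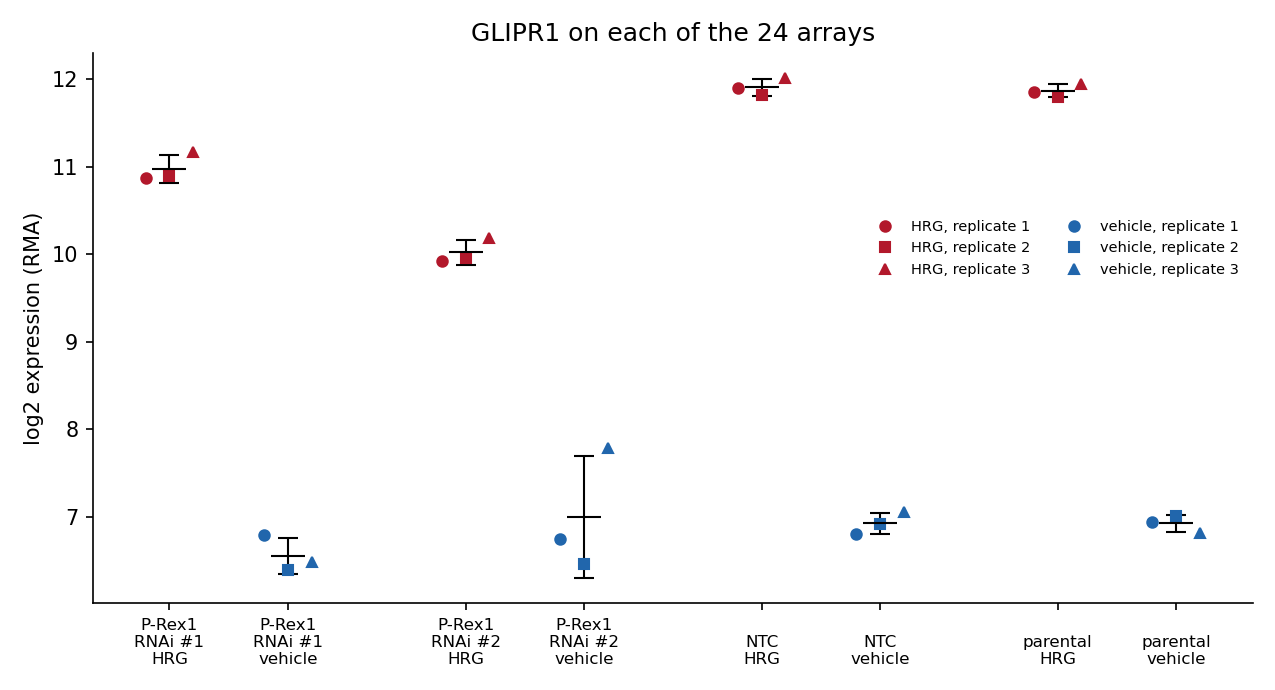
GLIPR1 on each array. The y axis gives the RMA log2 expression value, each point is 1 array with its replicate number by shape, and the black marks give the mean and SD of 3 arrays in each of the 8 groups. The arrays with HRG (red) lie between 9.92 and 12.02 and all exceed the arrays with vehicle (blue), which lie between 6.39 and 7.78.

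On the scale of a single array, GLIPR1 lay above 91.6% to 99.5% of all probe sets with HRG and above 52.9% to 70.4% with vehicle. Ordered by their means with HRG, the cell groups ran from duplex #2 over duplex #1 to parental and NTC cells. The parental and NTC values overlapped, while the 3 values under #2 lay below the 3 under #1 and these below all 6 control values. With vehicle the values under #2 overlapped those of every other cell group, and the NTC and parental values overlapped, whereas all 3 values under #1 lay below all 6 control values.

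The levels with HRG differed between silenced and NTC cells. Under duplex #1 GLIPR1 was lower by a log2 value of -0.93 than in NTC cells (SE 0.20, adjusted p = 0.0114, limma), that is 1.91-fold, where 0.114% of probe sets were called lower. This call rests on the spread of few arrays: the adjusted p was 0.0674 without NTC HRG replicate 3, 0.0535 without #1 HRG replicate 1, 0.0585 without #1 HRG replicate 2, and 6.01e-05 without #2 vehicle replicate 3, with differences from -0.93 to -0.88. Under duplex #2 the difference was -1.89 (SE 0.20, adjusted p = 1.05e-06, limma), that is 3.70-fold, with 0.936% of probe sets called lower, and only 2 of the 21042 had a larger fall. Set against each other, duplex #2 gave a value lower by -0.96 than duplex #1 (adjusted p = 0.00567, limma), where 0.39% of probe sets were called lower. Both comparisons with NTC use the same 3 NTC arrays. A choice of GLIPR1 that used these arrays would favour a lower value in the silenced cells.

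Without HRG no difference passed the test. The log2 difference between #1 and NTC cells was -0.37 (95% confidence interval -0.79 to 0.04, adjusted p = 0.445, limma), where 0.0428% of probe sets were called lower. Between #2 and NTC cells it was 0.07 (95% confidence interval -0.34 to 0.48, adjusted p = 0.932, limma), where 0.195% were called lower. It became -0.32 (adjusted p = 0.244) without #2 vehicle replicate 3. That array also enters the spread shared by all groups. Without it the difference between #1 and NTC cells stayed at -0.37, with an interval of -0.59 to -0.15 (adjusted p = 0.151, limma).

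Whether silencing changed the HRG response itself was tested as an interaction, called at an adjusted p under 0.05. A choice of GLIPR1 that used the NTC arrays would favour a negative value in this test. The interaction is the HRG effect under a duplex minus the HRG effect in NTC cells. For duplex #2 it was -1.96 on the log2 scale (SE 0.28, 95% confidence interval -2.54 to -1.38, adjusted p = 0.000273, limma), where 1.39% of probe sets were called lower. Only MMP10, which encodes the matrix metalloproteinase stromelysin-2, had a more negative value, at -2.08. Without #2 vehicle replicate 3 the interaction was -1.57 (adjusted p = 2e-05). For duplex #1 it was -0.56 and did not pass (95% confidence interval -1.14 to 0.02, adjusted p = 0.251, limma, and 0.084 without #2 vehicle replicate 3), where 0.314% of probe sets were called lower. The direct comparison of the duplexes, the HRG effect under #2 minus that under #1, gave -1.40 (95% confidence interval -1.98 to -0.82, adjusted p = 0.0707, limma), the lowest value of the 21042, where 0.0665% were called lower. It did not pass in the fit with a mean per group, but did with each array centred on its median (-1.47, adjusted p = 0.0254) and with the replicate number as a block (-1.40, adjusted p = 0.0225). With single arrays left out it was -1.01 with an adjusted p of 0.02 without #2 vehicle replicate 3 and -1.67 with an adjusted p of 0.00623 without #2 vehicle replicate 2.

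Expressed as a share of the log2 effect in NTC cells, 88.8% of the HRG effect on GLIPR1 was kept under duplex #1 and 60.7% under duplex #2. These shares can be read beside those of the other HRG-raised probe sets. Of the 601 called higher in parental cells, 449 also rose over 1.5-fold in NTC cells, and over these the median share kept was 84.5% under #1 (quartiles 69.5% and 97.8%) and 55.2% under #2 (quartiles 39.1% and 72.9%). The NTC rise that picked these 449 also divides the share, which can lower their shares, so they are not a neutral yardstick. GLIPR1 lay inside the quartiles for both duplexes, above 262 of the 449 under #1 and above 263 under #2. Its interaction with #2 was thus among the most negative of all probe sets, while the share of its log2 effect that remained lay near the middle of the HRG-raised probe sets.

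**Figure D2:**
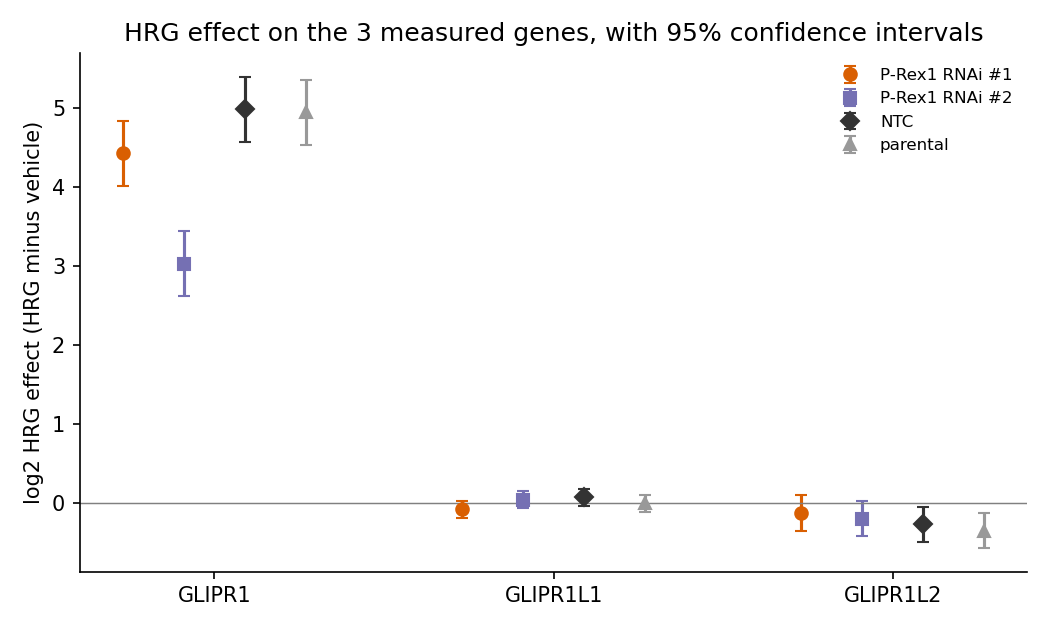
HRG effect on the 3 measured genes. The y axis gives the log2 difference between HRG and vehicle, points are estimates for the 4 cell groups and bars their 95% confidence intervals from limma. GLIPR1 lies between 3.03 and 4.99 in the 4 cell groups, while GLIPR1L1 and GLIPR1L2 lie between -0.35 and 0.07. As GLIPR1 was picked for its HRG rise, its intervals are a description and not a test.

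GLIPR1L1, which encodes a CAP protein of the sperm surface, gave values of 3.42 to 3.62 on all 24 arrays. These lay below the lowest 25% mark of every array (4.27 to 4.43), and the deposited values carry no detection call. In NTC cells it read 3.62, 3.53 and 3.58 with HRG, against 3.42, 3.58 and 3.52 with vehicle. The groups overlapped, and the HRG effect of 0.07 did not pass (95% confidence interval -0.03 to 0.17, adjusted p = 0.334, limma). In the other cell groups the HRG effects were -0.08 under #1, 0.04 under #2 and -0.01 in parental cells, and no contrast of this gene was called.

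GLIPR1L2, another CAP gene of unsettled function, was also dim, at 3.92 to 4.65. In parental cells it read 4.19, 4.07 and 3.94 with HRG, against 4.43, 4.59 and 4.24 with vehicle. All 3 values with HRG were below all 3 with vehicle, and the difference of -0.35 had an adjusted p of 0.0155 (limma) but a fold of only 1.28, so it was not called, where 2.41% of probe sets were called lower. In NTC cells it read 3.92, 4.21 and 4.11 with HRG, against 4.31, 4.30 and 4.44 with vehicle, a difference of -0.27 (adjusted p = 0.0599, limma), where 3.37% were called lower. Under the duplexes the HRG effects were smaller in size, -0.13 for #1 (adjusted p = 0.401) and -0.20 for #2 (adjusted p = 0.26, limma for both), where 1.15% and 0.656% of probe sets were called lower. The interactions with HRG were 0.14 for #1 (95% confidence interval -0.17 to 0.46) and 0.07 for #2 (95% confidence interval -0.24 to 0.39), and neither passed. The HRG effect was negative in all 4 cell groups but called in none, and its 95% confidence interval spanned 0 under both duplexes.

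**Figure D3:**
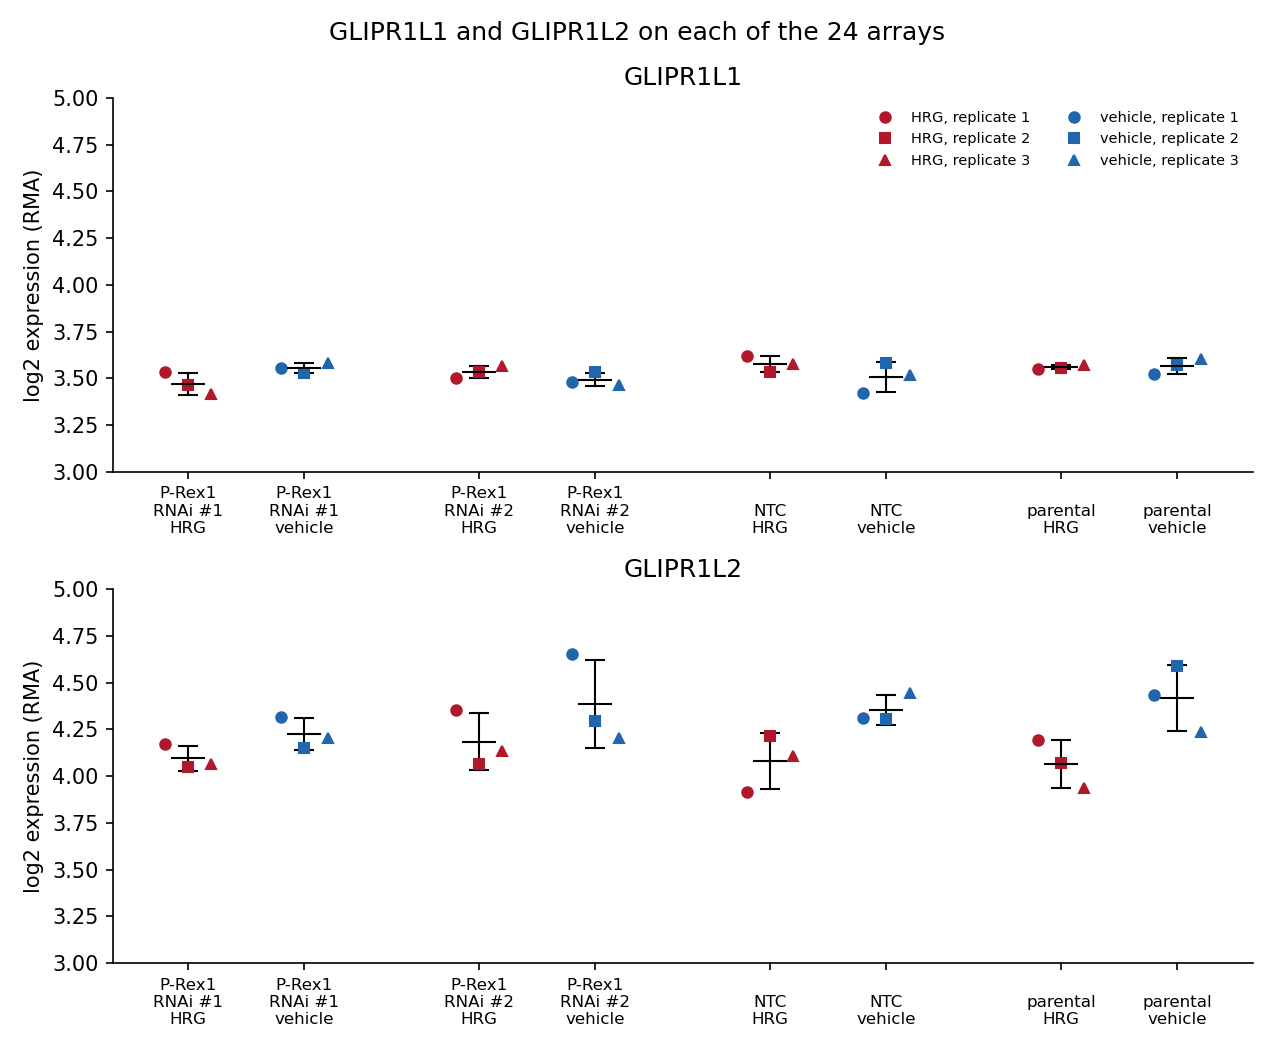
GLIPR1L1 (upper panel) and GLIPR1L2 (lower panel) on each array. The y axes give RMA log2 expression, points are arrays, and black marks give the mean and SD of 3 arrays. GLIPR1L1 stays between 3.42 and 3.62, and GLIPR1L2 spans 3.92 to 4.65 with the lower means in the groups with HRG.

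GLIPR1L1 and GLIPR1L2 were thus not called by HRG in any cell group, and the genes around GLIPR1 were examined next. Of the 5 nearest genes on each side of GLIPR1 in the RefSeq annotation (GRCh38.p14), 4 of 10 had a probe set, namely GLIPR1L1, GLIPR1L2, CAPS2 and KRR1, and none was called in any HRG comparison. KRR1, a factor of ribosome assembly whose gene overlaps GLIPR1 in that annotation, had log2 means of 9.67 with HRG and 9.79 with vehicle in NTC cells. Its HRG effect there was -0.12 (95% confidence interval -0.30 to 0.06, adjusted p = 0.309, limma), and in parental cells 0.06. CAPS2, which encodes a calcium-binding protein, averaged 4.65 ± 0.05 with HRG and 5.20 ± 0.08 with vehicle in NTC cells (SD, n = 3 each). Its difference of -0.55 (adjusted p = 0.000524, limma) was 1.46-fold, just under the fold needed for a call, and it was the same size in parental cells. As only 0.656% to 3.37% of all probe sets were called in a given direction and cell group, the lack of a call among 4 genes does not set them apart.

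GLIPR2 lies on another chromosome, and 4 of its 10 nearest genes were measured. GNE, which encodes the bifunctional enzyme that starts sialic acid synthesis, was called lower by HRG in NTC and parental cells. In these, 3.37% and 2.41% of all probe sets were called lower. GNE averaged 7.24 ± 0.14 with HRG and 7.88 ± 0.08 with vehicle in NTC cells (SD, n = 3 each). The difference was -0.64 there (adjusted p = 4.88e-05, limma) and -0.67 in parental cells. Under the duplexes GNE did not reach the fold for a call, with -0.33 for #1 and -0.37 for #2. RECK, CCIN and CLTA were not called in any cell group. The values of these neighbours give no level for GLIPR2.

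Of the other CAP genes on the list, 8 of 11 were measured, and none was called higher or lower by HRG in any cell group. As 0.656% to 3.37% of all probe sets were called in a given direction and cell group, a count of 0 in a list this short, or in the next 2, does not set it apart. Their median HRG effect was -0.07 in NTC cells, beside 0.03 over all 21042 probe sets, and -0.07 in parental cells, beside -0.03. The largest changes were those of CRISPLD1 and CRISPLD2, secreted proteins with a CAP domain and LCCL domains. CRISPLD1 averaged 7.18 ± 0.21 with HRG and 7.75 ± 0.04 with vehicle in NTC cells, a difference of -0.57 (adjusted p = 8.01e-05, limma) and 1.49-fold, and its difference in parental cells was -0.34. CRISPLD2 averaged 7.17 ± 0.13 with HRG and 7.51 ± 0.06 with vehicle in NTC cells (SD, n = 3 each), a difference of -0.34 (adjusted p = 0.00498, limma), and its difference in parental cells was -0.51. The log2 difference of both genes was negative in all 4 cell groups and short of the fold for a call in each. CRISP1, CRISP2, CRISP3, PI15, PI16 and R3HDML ranged from -0.16 to 0.21 in NTC cells, and none of these had an adjusted p under 0.05 there.

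**Figure D4:**
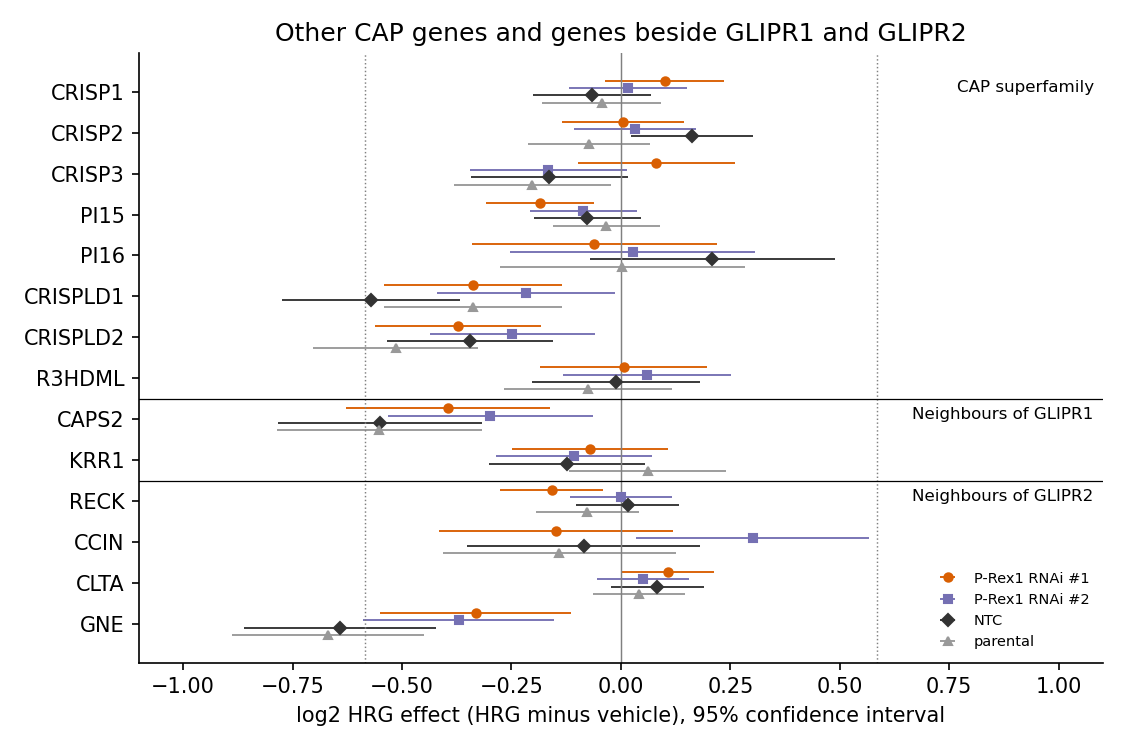
HRG effects on other CAP genes (top block), on neighbours of GLIPR1 (middle) and on neighbours of GLIPR2 (bottom). The x axis gives the log2 difference between HRG and vehicle with its 95% confidence interval for each cell group, and dotted lines mark a 1.5-fold change. GNE passes the lower dotted line in NTC and parental cells, with -0.64 and -0.67.

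Genes tied to the known biology of the family were also counted. Autophagy genes were listed because GLIPR2 binds Beclin 1, those of the class III phosphatidylinositol 3-kinase among them. Of these, 11 of 12 were measured and none was called by HRG in any cell group. BECN1 itself had an HRG effect of -0.20 in NTC cells (adjusted p = 0.0605, limma). RUBCN, an inhibitor of autophagosome maturation, had 0.44 and PIK3R4, the regulatory subunit, -0.41 in NTC cells, both with an adjusted p under 0.05 but below the fold for a call. Of 10 listed regulators of GLIPR1 transcription, 7 were measured and none was called by HRG. SRF had an HRG effect of 0.18 under #1, 0.18 under #2, 0.27 in NTC cells (adjusted p = 0.0223, limma) and 0.07 in parental cells. ELK3, an ETS partner of SRF, had 0.56 under #1, 0.46 under #2, 0.16 in NTC cells and 0.42 in parental cells.

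Of 30 listed p53 targets, 28 were measured, 3 were called higher and 2 lower by HRG in NTC cells, where 2.64% and 3.37% of all probe sets were, and 4 higher and 2 lower in parental cells, where 2.86% and 2.41% were. In NTC cells PLK2, a stress-induced kinase, rose 1.98-fold, AEN, a nuclease, 1.77-fold and PLK3, another kinase, 1.56-fold. TP53INP1, a stress-response protein, had a log2 effect of -0.87 there and DDB2, a DNA damage sensor, -0.74. Under duplex #1, 8 were called higher and none lower, led by GDF15, a stress cytokine, at 2.06-fold, beside 2.52% and 1.15% of all probe sets. Under duplex #2, 3 were called higher and 1 lower, beside 1.07% and 0.656%. CDKN1A, the p21 inhibitor of cyclin-dependent kinases, was called under #1 alone, at 1.51-fold, and whether this differs from NTC cells did not pass in the interaction. The median HRG effect of the list in NTC cells was 0.09, beside 0.03 over all probe sets.

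The genes whose values across the arrays most resembled those of GLIPR1 were then listed by Pearson's r, as a description with no test, since all points share the same arrays and HRG moves many genes at once. Over the 24 arrays, 615 of the 19291 other probe sets with 1 symbol had an r above 0.9. The 10 highest, with r of 0.986 to 0.994, were VCL, SYTL2, CSRP1, ZYX, SAT1, TMEM43, CCNYL1, AHR, SPTSSB and SERPINB8. VCL encodes vinculin and ZYX zyxin, proteins of focal adhesions, CSRP1 is a LIM protein of the actin cytoskeleton, SAT1 breaks down polyamines and AHR is the aryl hydrocarbon receptor. VCL averaged 10.90 ± 0.09 under #1, 10.70 ± 0.05 under #2, 11.17 ± 0.04 in NTC cells and 11.15 ± 0.11 in parental cells with HRG (SD, n = 3 each). With vehicle its group means were 9.48 under #1, 9.53 under #2, 9.55 in NTC cells and 9.53 in parental cells, so its order with HRG was that of GLIPR1 over a smaller range. SYTL2 averaged 8.84 ± 0.07 under #1, 7.86 ± 0.08 under #2 and 9.22 ± 0.16 in NTC cells with HRG (SD, n = 3 each), against 5.77, 5.79 and 5.67 with vehicle.

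Under duplex #2 the 10 genes kept between 54.6% (SERPINB8) and 84.9% (SPTSSB) of their log2 HRG effect in NTC cells, with GLIPR1 at 60.7%. Under duplex #1 they kept between 86.4% (SYTL2) and 107% (SPTSSB), with GLIPR1 at 88.8%. Within the 12 arrays with HRG, where only the cell groups and replicates differ, the 5 highest were CORO1C, CD44, LPCAT1, MYH9 and TANC2, with r of 0.986 to 0.995. CORO1C encodes an actin-binding coronin, CD44 the hyaluronan receptor, LPCAT1 an enzyme of phospholipid remodelling and MYH9 the heavy chain of non-muscle myosin. CD44 averaged 9.99 ± 0.10 under #1, 9.54 ± 0.05 under #2 and 10.43 ± 0.02 in NTC cells with HRG (SD, n = 3 each), against 9.31, 9.15 and 9.45 with vehicle. These 5 kept 23.4% to 48.0% of their log2 effect under #2 and 50.7% to 75.1% under #1, less than GLIPR1 in both cases. With Spearman's rho in place of r, 4 of the 10 and 0 of the 5 were again among the highest, so the names depend on the measure of likeness.

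**Figure D5:**
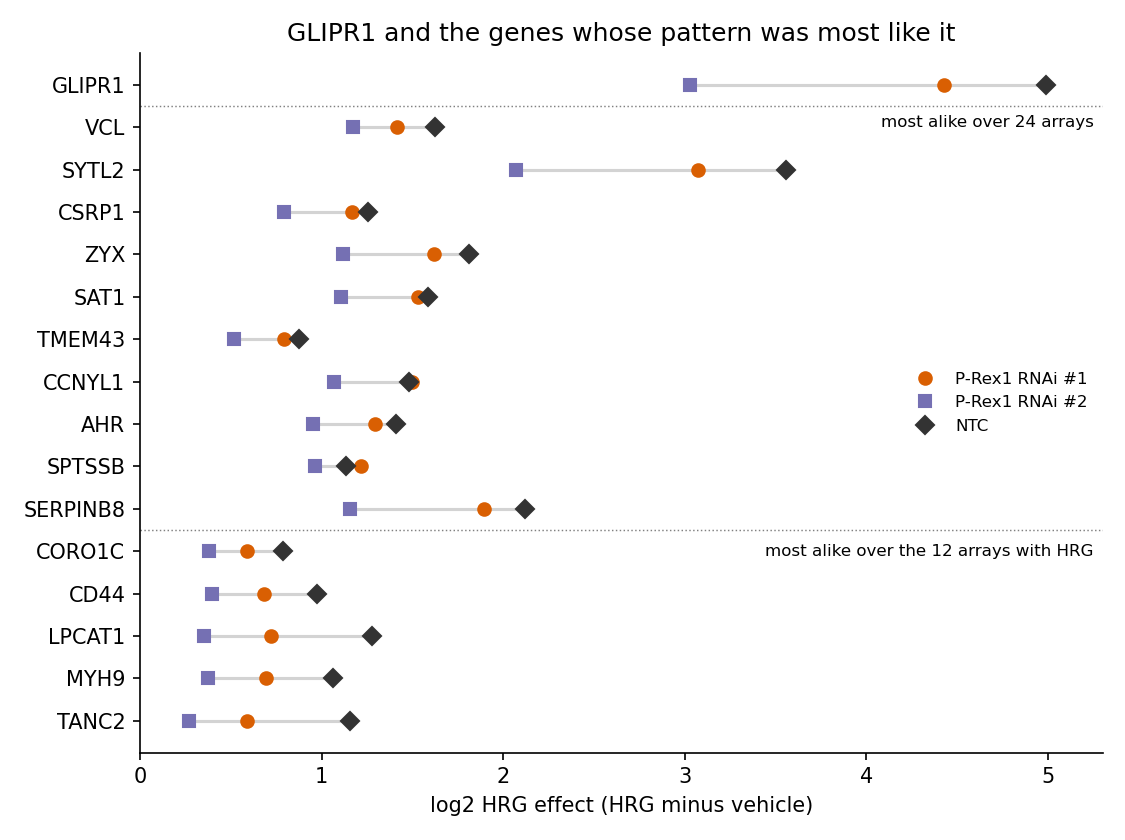
HRG effects on GLIPR1 and on the genes most like it. The x axis gives the log2 difference between HRG and vehicle under P-Rex1 RNAi #1 (circles), under #2 (squares) and in NTC cells (diamonds), for the 10 genes most alike over 24 arrays and the 5 most alike over the 12 arrays with HRG. For every gene the smallest effect is that under #2, and GLIPR1 has the largest effect in each cell group.

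Promoter sequences were read from RefSeq (GRCh38.p14, windows of 300 bases that end shortly after each start site) for the family and for these genes. GLIPR2, GLIPR1L1 and 14 of the 15 pattern genes matched, and GLIPR1, GLIPR1L2 and SYTL2 did not. Each window was searched on both strands for the AP-1 motif TGACTCA, the CRE motif TGACGTCA, the SRF motif known as the CArG box, the TEAD motif GGAATG and the ETS motif CCGGAAG. These letters occurred in 4.95%, 1.85%, 1.29%, 14% and 10.3% of the 35116 promoters in the table. The promoters below show the dim neighbour GLIPR1L1, which held none of the motifs, the second of the GLIPR2 promoters, which held a CArG box, and VCL, the gene most like GLIPR1, which held a TEAD motif. Capitals mark the motif, and each is written on the strand of its gene, 5′ to 3′.
GLIPR1L1 promoter, chr12:75334420-75334719, plus strand: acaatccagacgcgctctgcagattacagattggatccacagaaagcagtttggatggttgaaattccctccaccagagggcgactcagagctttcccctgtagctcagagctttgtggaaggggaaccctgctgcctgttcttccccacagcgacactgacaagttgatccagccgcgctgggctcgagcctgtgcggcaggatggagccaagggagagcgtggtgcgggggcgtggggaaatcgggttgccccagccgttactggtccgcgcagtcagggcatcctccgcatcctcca
GLIPR2 promoter, chr9:36136483-36136782, plus strand: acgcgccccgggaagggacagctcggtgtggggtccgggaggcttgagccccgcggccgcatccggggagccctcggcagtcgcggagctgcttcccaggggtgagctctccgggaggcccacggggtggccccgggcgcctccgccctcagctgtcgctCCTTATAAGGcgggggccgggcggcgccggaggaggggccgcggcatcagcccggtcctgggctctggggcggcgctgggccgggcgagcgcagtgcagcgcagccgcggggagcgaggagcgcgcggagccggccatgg
VCL promoter, chr10:73997866-73998165, plus strand: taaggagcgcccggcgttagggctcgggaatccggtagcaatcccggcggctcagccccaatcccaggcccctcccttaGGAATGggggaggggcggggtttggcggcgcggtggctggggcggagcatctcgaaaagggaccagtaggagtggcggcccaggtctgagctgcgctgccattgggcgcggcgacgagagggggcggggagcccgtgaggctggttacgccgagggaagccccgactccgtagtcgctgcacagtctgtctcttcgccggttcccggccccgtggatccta

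Among the 9 genes with an entry of the 10 most alike over 24 arrays, 1 had an AP-1 motif (SERPINB8), none a CRE motif or a CArG box, 3 a TEAD motif (VCL, CSRP1 and AHR) and 2 an ETS motif (SAT1 and SERPINB8). Of the 5 most alike with HRG, 1 had a TEAD motif (MYH9) and 1 an ETS motif (CORO1C). Genes with more than 1 start site had more than 1 window, as CSRP1 and CORO1C did with 3 each, and the shares over all promoters are per window. A match is a run of letters and not a measured binding site, and a window without a match says only that these letters are not in it.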

How the data were processed

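RNA of T-47D cells was measured on 24 arrays in 8 groups of 3 biological replicates. The authors checked the arrays with simpleaffy, normalized them with RMA (versions and genome build not given in the sources used here) and deposited log2 expression values of 28536 probe sets. Columns were matched to samples by name. In the platform annotation 19292 probe sets have 1 symbol and 1750 have several. These 21042 were tested, and genes are named from single-symbol probe sets (the brightest where a list gene has several). One linear model with a mean per group was fitted to all 24 arrays in limma 3.58.1 (R 4.3.3), with Benjamini-Hochberg adjustment over all 21042. A call needed a fold change above 1.5 with an adjusted p below 0.05, and an interaction the adjusted p alone. The Rank Products test of the methods was not run. NTC cells were the control for silencing.

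The members and lists were chosen with earlier results of these data known. Named were all members, PREX1, list genes that were called (at most 4 a list and contrast) or singled out after their values were seen, and the genes most like GLIPR1. Alternatives were the replicate number as a block, all probe sets, no dim probe sets, another variance prior, only the groups compared, median centring, both controls together, no fold threshold, Spearman's rho and each array left out. The precision is limited by the number of arrays, which carry no counts. Self-tests were run on simulated data. Figures were drawn with matplotlib.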

Additional observations from a re-analysis of the deposited data

Results flagged for a closer look

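The HRG effect on GLIPR1 under P-Rex1 RNAi #2 minus that in NTC cells was -1.96 on the log2 scale (adjusted p = 0.000273, limma), and it drew attention because the test of the difference itself passed. All 3 arrays with HRG under #2 (9.92, 9.96 and 10.18) lay below all 3 NTC arrays with HRG (11.90, 11.82 and 12.02). The value was -1.57 (adjusted p = 2e-05) without the #2 vehicle array of replicate 3. A choice of GLIPR1 that used the NTC arrays would favour a negative value. The share of its log2 effect kept under #2, 60.7%, lay near the median of 55.2% over 449 HRG-raised probe sets. These 449 were picked in part by the NTC rise that divides the share, which can lower that median.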

How the results depend on the processing

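The fall of GLIPR1 under #2 with HRG and its interaction with #2 kept their direction and their side of the threshold under every alternative run. The difference between #1 and NTC with HRG was -0.88 (adjusted p = 0.0631) without the 4 arrays that stood apart on the second principal component, an alternative chosen after seeing the data, and ranged from -1.02 to -0.88 with single arrays left out. The HRG effect under #2 minus that under #1 was called with the replicate number as a block (-1.40, adjusted p = 0.0225) and with each array centred on its median (-1.47, adjusted p = 0.0254), and ranged from -1.67 to -1.01 with arrays left out. The difference between #2 and NTC without HRG ranged from -0.32 to 0.34, and the share of the HRG effect kept under #2 from 55.3% to 68.6%. Of 84 pairs of arrays with the same number in different groups, 66 had a correlation of deviations above 0.1 (lowest -0.29, median 0.19), and 21 of 24 arrays correlated best with their own number. This is a hint from the data of something shared by number, but the labels name nothing shared and not every pair exceeded 0.1, so the block stayed an alternative. The block changed no other call of a member. The 4 arrays were parental vehicle 3, NTC HRG 3, #1 vehicle 2 and #2 HRG 3.

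The small differences of the dim relatives changed sign, none of them called. For GLIPR1L1, median centring gave an HRG effect of 0.010 in parental cells, a difference of -0.00049 between #1 and NTC without HRG and an interaction of 0.028 with #2. Both controls together gave 0.011 for that interaction, and -3.8e-05 for GLIPR1L2 between #2 and NTC without HRG. Without the 4 arrays the GLIPR1L1 effect in parental cells was 0.011. With arrays left out, GLIPR1L1 ranged from -0.030 to 0.011 for the parental HRG effect, -0.065 to 0.017 for the interaction with #2 and -0.058 to 0.024 for #2 minus NTC without HRG. GLIPR1L2 ranged from -0.066 to 0.083 for #1 minus NTC with HRG, -0.017 to 0.21 for the interaction with #2, -0.10 to 0.12 for #2 minus NTC without HRG and -0.16 to 0.063 for the HRG effect under #2 minus that under #1. Neither has a value when the dimmest 25% of probe sets are left out. CAP genes called lower numbered 1 in NTC cells with median centring, 2 in parental and 2 in NTC cells with no fold threshold, and 0 to 1 in each with arrays left out. With no fold threshold, parental and NTC cells gave 4 and 1 higher and 2 and 3 lower genes of the autophagy list. Regulators gave 2 and 1 higher and 2 and 3 lower, and p53 targets 11 and 12 higher and 6 and 7 lower. Over all 21042 probe sets, 6484 in parental and 6569 in NTC cells had an adjusted p under 0.05 (limma), higher or lower. With Spearman's rho, 4 of the 10 genes most like GLIPR1 were shared. The causes of these changes were not tested.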

Other observations

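With HRG, GLIPR1 was highest on the array of replicate 3 in all 4 cell groups, by 0.28 under #1, 0.24 under #2, 0.16 in NTC cells and 0.12 in parental cells above the mean of the other 2 arrays. DUSP6, which encodes a phosphatase of ERK, was higher on the same arrays by 0.43, 0.42, 0.42 and 0.54. With vehicle GLIPR1 deviated on the array of replicate 3 by -0.11 under #1, 1.18 under #2, 0.19 in NTC cells and -0.16 in parental cells, and DUSP6 by 0.49, 0.98, 0.21 and 0.13. The labels do not say what a replicate number shares across groups, and its part in these values was not tested.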
